A study of Homo sapiens with 5 samples.

Results

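CpG islands that the annotation places inside genes, rather than in promoters, were examined in human induced pluripotent stem cells (iPSCs) after exposure to 4 chemicals. The deposited table divides the genome into windows of 1000 bases and gives each one a CpG context and a gene section. The 18587 windows that it places in a CpG island and in an intron, an exon, an intron-exon boundary or a 3′ UTR were taken, which are 6.45% of the 288391 windows in all and 37.4% of the 49761 island windows. The choice rests on these annotations and uses no methylation value. Many of the windows are still close to a promoter, since 5348 lie within 1 kb of the start of the assigned gene and 1657 hold a RefSeq start of it. The windows lie in 13677 islands with a median length of 1200 bases and are assigned to 10917 genes, of which 7152 have only 1 window. Of the 18587, 11207 span an intron-exon boundary, 4934 lie in introns, 1351 in exons and 1095 in a 3′ UTR.

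Methylation was measured by reduced representation bisulfite sequencing (RRBS), which cuts DNA at a CpG-rich recognition site, treats the fragments with bisulfite to convert cytosines that carry no methyl group, and sequences them to find which cytosines stayed. The cells were of the line HPS0063 (201B7), labelled WT and grown without feeder cells. Exposure lasted 48 h. Control cells received the vehicle DMSO at 0.1%, and the others received etoposide at 1 nM, propyl gallate at 1 µM, theophylline at 1 µM or 5-aza-2′-deoxycytidine (5-aza-dc) at 10 nM. Etoposide is a topoisomerase inhibitor, propyl gallate an antioxidant food additive, theophylline a bronchodilator, and 5-aza-dc a cytosine analogue that traps DNA methyltransferases. Each condition has 1 library. No replicates exist against which a difference could be judged, and the same Control library enters all 4 comparisons.

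CpG islands are stretches of DNA that keep a high density of CpG sites, and those at gene promoters are mostly free of methylation. Islands inside genes are more mixed. Some act as promoters of alternative transcripts, antisense RNAs or nested genes, while others are methylated along with the rest of a transcribed gene body, where DNMT3B is recruited through the histone mark H3K36me3. Some islands of imprinted genes carry methylation on 1 parental allele only.

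Some windows inside 1 annotated gene body hold the start of a transcript. The 250 bases before such starts are shown for 7 windows described in the results, with CpG sites in capitals, 5′ to 3′ on the strand of the gene, from RefSeq on GRCh38.p14. REC8 (chr14:24171830-24172079, plus strand) and GRAMD4 (chr22:46576838-46577087, plus strand) are shown because their windows are the ones with a start inside among those named for large differences between libraries. ZNF331 (chr19:53554363-53554612, plus strand) and GRB10 (chr7:50782897-50783146, minus strand) are imprinted genes with windows at intermediate levels. UHRF1 (chr19:4909251-4909500, plus strand) and DNMT3A (chr2:25341926-25342175, minus strand) had low levels in all libraries, and PAX8-AS1 (chr2:113236019-113236268, plus strand), an antisense RNA that starts inside PAX8, had a high one in Control.
REC8: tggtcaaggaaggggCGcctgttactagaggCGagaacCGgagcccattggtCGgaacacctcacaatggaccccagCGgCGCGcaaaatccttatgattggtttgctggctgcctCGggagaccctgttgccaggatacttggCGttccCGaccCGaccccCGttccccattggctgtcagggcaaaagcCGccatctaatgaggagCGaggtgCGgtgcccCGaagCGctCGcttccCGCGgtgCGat
GRAMD4: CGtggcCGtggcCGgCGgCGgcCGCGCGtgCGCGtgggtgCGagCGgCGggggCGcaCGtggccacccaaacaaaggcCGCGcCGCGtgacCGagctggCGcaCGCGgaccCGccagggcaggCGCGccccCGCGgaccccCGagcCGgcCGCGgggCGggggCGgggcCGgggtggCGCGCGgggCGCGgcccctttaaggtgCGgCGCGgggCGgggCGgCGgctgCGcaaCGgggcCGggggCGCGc
ZNF331: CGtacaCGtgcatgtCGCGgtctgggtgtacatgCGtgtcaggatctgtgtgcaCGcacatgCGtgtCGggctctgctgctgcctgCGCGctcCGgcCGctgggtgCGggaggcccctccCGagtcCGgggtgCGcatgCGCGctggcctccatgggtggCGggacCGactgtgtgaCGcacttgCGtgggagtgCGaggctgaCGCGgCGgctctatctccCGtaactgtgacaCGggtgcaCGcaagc
GRB10: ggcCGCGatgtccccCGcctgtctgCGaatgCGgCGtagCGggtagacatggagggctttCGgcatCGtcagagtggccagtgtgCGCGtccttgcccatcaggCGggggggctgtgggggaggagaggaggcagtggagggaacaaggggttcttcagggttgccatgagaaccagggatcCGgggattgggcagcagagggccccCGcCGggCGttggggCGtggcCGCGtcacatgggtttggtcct
UHRF1: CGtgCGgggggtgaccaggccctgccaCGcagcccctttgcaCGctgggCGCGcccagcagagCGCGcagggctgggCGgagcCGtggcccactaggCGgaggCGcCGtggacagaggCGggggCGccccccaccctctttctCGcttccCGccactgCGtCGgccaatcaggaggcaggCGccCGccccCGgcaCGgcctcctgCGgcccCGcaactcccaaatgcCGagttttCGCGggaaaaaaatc
DNMT3A: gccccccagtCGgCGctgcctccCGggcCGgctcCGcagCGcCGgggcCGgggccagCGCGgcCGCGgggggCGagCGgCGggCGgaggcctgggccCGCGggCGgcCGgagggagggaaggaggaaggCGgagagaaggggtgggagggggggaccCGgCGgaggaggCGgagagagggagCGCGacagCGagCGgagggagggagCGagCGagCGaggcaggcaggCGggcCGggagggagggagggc
PAX8-AS1: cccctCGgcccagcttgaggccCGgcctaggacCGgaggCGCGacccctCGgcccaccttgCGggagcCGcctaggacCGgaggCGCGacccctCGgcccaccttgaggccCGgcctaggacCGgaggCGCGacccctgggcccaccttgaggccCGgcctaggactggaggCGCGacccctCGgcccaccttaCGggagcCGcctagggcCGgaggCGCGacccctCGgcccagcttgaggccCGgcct
The stretches hold 21 CpG sites for REC8, 51 for GRAMD4, 29 for ZNF331, 19 for GRB10, 28 for UHRF1, 33 for DNMT3A and 27 for PAX8-AS1. They lie wholly inside the measured window for ZNF331, UHRF1 and PAX8-AS1, while 79 of the 250 bases do so for REC8, 87 for GRAMD4, 104 for GRB10 and 75 for DNMT3A. Over all 3140 RefSeq promoters that start in a gene-body island window, the median number of CpG sites was 22, against 11 over all 35116 RefSeq promoters. It was 23 in windows under 10% methylation and 14 in windows of at least 90%. The letters CCGG, read the same on both strands and cut in RRBS, occurred in 88.6% of the 3140 and in 58.5% of all promoters. The 3140 were chosen through windows in CpG islands that RRBS had covered. Their higher CpG count and CCGG share therefore follow in part from the choice.

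Each count in the table is a call of 1 cytosine in 1 read, so several calls can come from the same read or from PCR copies of it, and the 95% intervals describe only the error of counting. The windows held between 27546100 calls after etoposide and 33419459 in Control. The median window had between 1112 and 1340 calls in the 5 libraries, and its 95% Wilson interval was between 2.46 and 2.63 percentage points wide. At least 100 calls were present in all 5 libraries in 93.1% of the windows.

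Most gene-body islands were either almost unmethylated or almost fully methylated. The mean methylation level (β-value, the percentage of calls that were methylated) was 42.7% in Control, 42.9% with etoposide, 42.8% with propyl gallate, 43.1% with theophylline and 41.6% with 5-aza-dc. In Control 45.8% of the windows were under 10% and 28.5% were at 90% or above, while 6.32% lay between 30% and 70%. The level was thus seldom near its mean. Islands in promoters had a mean of 19.3% in Control over 16238 windows, and intergenic islands had 66.2% over 12242 windows. Gene-body windows outside islands had a mean of 88.2%. The order of promoter, gene-body and intergenic islands was the same on each of the 22 autosomes, on which the mean of the gene-body islands ran from 31.1% on chromosome 6 to 63.2% on chromosome 21. The chromosomes with the highest means, 21, 19, 22 and 16, had 63.2%, 57.6%, 54.5% and 52.1%.

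**Figure D1:**
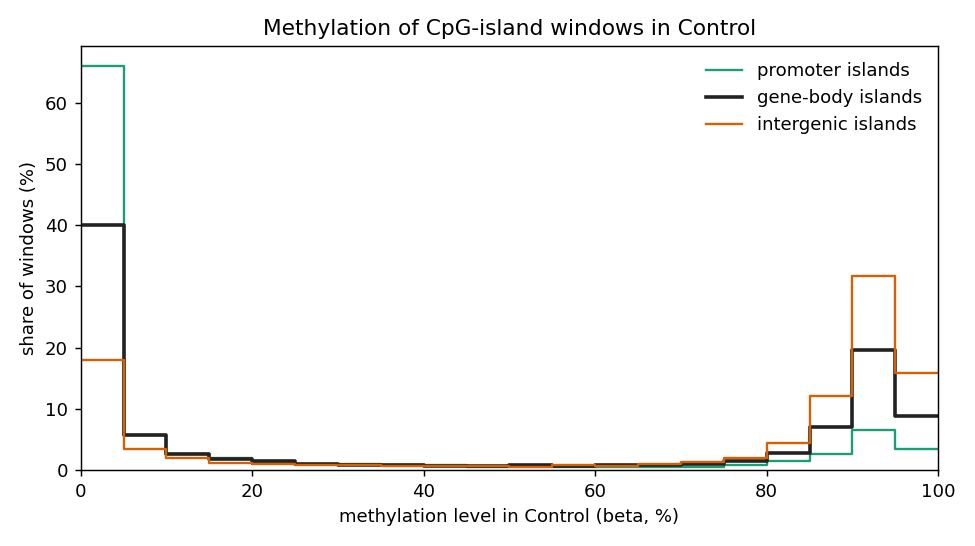
Share of island windows (y axis, %) in each bin of methylation level in Control (x axis, β-value in %) for promoter, gene-body and intergenic islands. All 3 curves have a peak at each end, and the gene-body islands have 40.1% of their windows under 5%.

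The level was higher further into the gene. Within 1 kb of the start of the assigned gene, 5348 windows had a mean of 16.7% in Control, and 73.9% of them were under 10%. Here and in what follows, windows are counted by level on the mean of the 5 libraries. The mean was 29.1% at 1 to 2 kb, 44.5% at 2 to 5 kb, 56.9% at 5 to 10 kb and 63.3% at 10 to 20 kb. It was 73.6% over 889 windows more than 100 kb into the gene, of which 60.5% were at 90% or above. The same order was found in all 5 libraries. By section, the Control mean was 59.0% in introns, 54.0% in 3′ UTRs, 49.4% in exons and 33.6% at intron-exon boundaries.

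**Figure D2:**
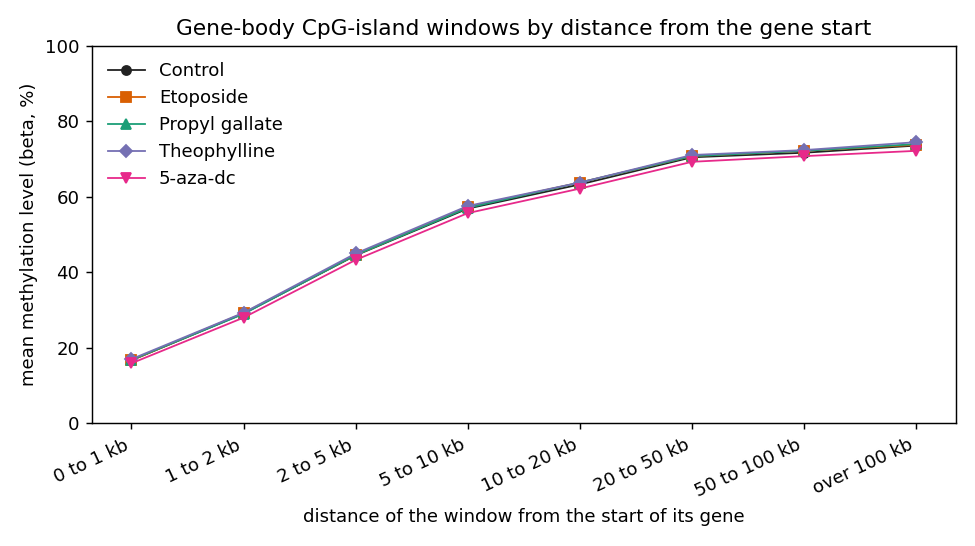
Mean methylation level (y axis, β-value in %) of gene-body island windows by distance from the start of the assigned gene (x axis), with 1 line per library. In Control the mean goes from 16.7% within 1 kb to 73.6% beyond 100 kb, and the 5-aza-dc line lies below the others at every distance.

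Annotated starts of other transcripts accompanied low levels deep inside genes. A RefSeq gene start lay in or within 1000 bases of 7388 windows, whose Control mean was 17.2%, against 59.5% in the other 11199. Among windows more than 5 kb from the start of their own gene, 1043 had such a start nearby and a mean of 25.5%, and 6571 had none and a mean of 72.7%. The 829 windows that held only the start of a gene other than the assigned one had a mean of 13.6%, and 77.4% of them were under 10%. However, 989 of the 6571 windows with no known start nearby were also under 10%. Longer islands had lower levels. The Control mean was 66.6% in islands of 500 to 700 bases, 32.9% in those of 1100 to 2000 bases and 20% in those of 4100 bases or more.

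Neighbouring windows were mostly alike, but sharp borders occurred. The windows form 13829 unbroken regions, of which 10146 are a single window. Among 4758 pairs of adjacent windows in the same gene, 72.5% differed by less than 10 percentage points and 10.4%, or 494 pairs, by 50 or more. Of the 3765 genes with 2 or more windows, 903 (24.0%) had a window under 10% as well as a window of at least 90%. In 868 genes every window was under 10%, and in 479 every window was at 90% or above.

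The genes with the most windows showed the same contrast. KDM4B, a histone H3K9 demethylase on chromosome 19, had 26 windows with a mean of 88.1% in Control, and 19 of them were at 90% or above. PPP2R3B, a regulatory subunit of protein phosphatase 2A, had 25 windows and a mean of 85.0%. KNDC1, ZFR2, MAD1L1, PNPLA7, INTS1 and EXD3 had 16 to 22 windows each, with means from 80.3% to 89.2%. BCOR, a corepressor found in a Polycomb complex, differed from these, with 20 of its 24 windows under 10% and a mean of 17.0%. Its lowest window was at 0.399% and its highest at 94.6% as the mean of the 5 libraries. PALM, which encodes the membrane protein paralemmin, had 16 windows with a mean of 71.4% and an SD between windows of 27.8 percentage points.

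Enzymes that write or remove DNA methylation had islands of both kinds. Of 28 windows in 13 such genes, 16 were under 10%, 9 were at 90% or above and none was between 30% and 70%. In DNMT3A, a de novo methyltransferase with a shorter isoform made from an internal promoter, the windows near the gene start were at 0% and 0.753% in Control. A window 65.1 kb into the gene was at 15.5%. Both windows at 90.1 and 91.1 kb, which have a RefSeq start in or beside them, were at 0.342% and 1.40%. At 94.1 kb the level was 92.6%, and the last window, at 98.1 kb, was at 96.4%. UHRF1, which brings the maintenance methyltransferase to newly replicated DNA, had levels of 1.99% at 6.42 kb, 4.75% at 7.42 kb and 87.9% at 11.4 kb. In DNMT1, the maintenance methyltransferase, 1 window was at 1.77% and the other at 95.9%.

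Pluripotency genes had 28 windows in 12 genes, of which 13 were under 10% and 8 at 90% or above. SALL4, a zinc finger factor of the pluripotency network, went from 0.657% and 0.469% in its first windows to 98.4% at 11.0 kb. TERT, the catalytic subunit of telomerase, had 1 window near its start at an intermediate level, with 29.7% in Control, 26.4% with etoposide, 31.1% with propyl gallate, 42.4% with theophylline and 25.2% with 5-aza-dc. The theophylline library was the highest, 12.7 percentage points above Control (Fisher's exact test, Benjamini-Hochberg adjusted p = 6.90e-32), which is under the 25 points set for a call. The other 6 windows of TERT were between 74.2% and 93.9% in Control.

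**Figure D3:**
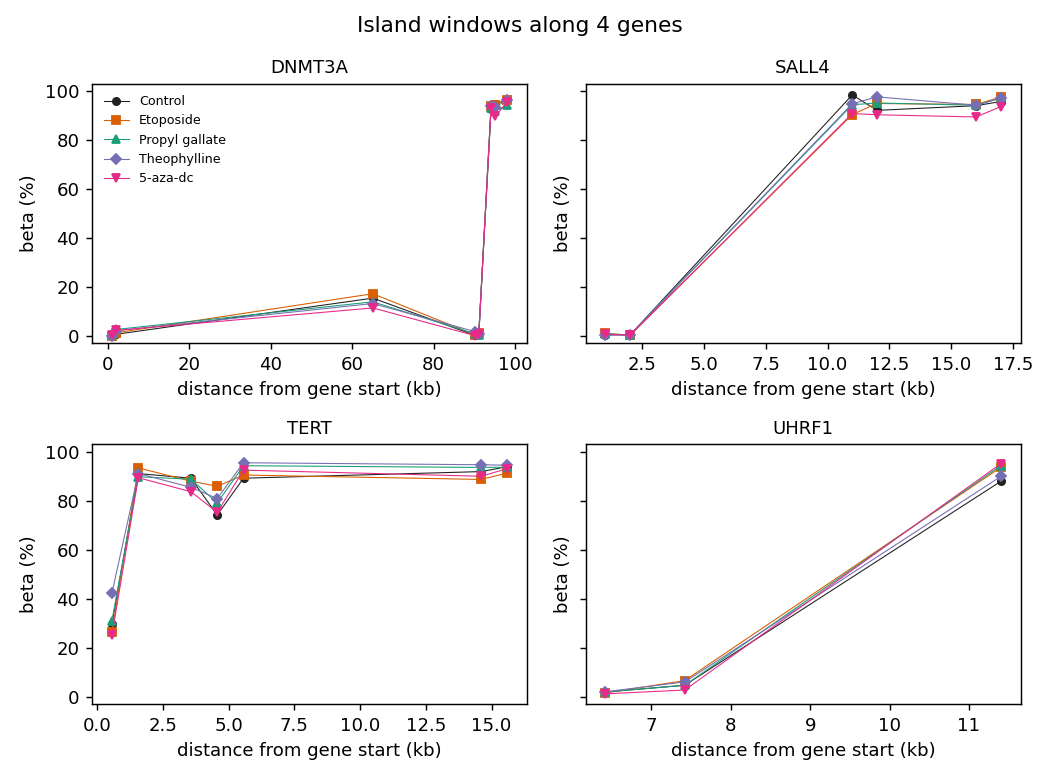
Methylation level (y axis, β-value in %) of island windows in DNMT3A, SALL4, TERT and UHRF1 by distance from the gene start (x axis, kb), with 1 line per library. Lines join measured windows only, and the level changes between neighbouring islands, as for DNMT3A at 1.40% and 92.6% in Control. The 5 libraries lie close together at both of these windows, but at the TERT window 0.568 kb from the start they run from 25.2% to 42.4%.

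Developmental homeobox genes of the HOX, PAX, LHX and related families, which carry long islands bound by Polycomb complexes in stem cells, had the lowest levels of the lists examined. Of 235 windows in 94 genes, 204 were under 10%, and the Control mean was 7.24%. Only 2 were at 90% or above. PAX8, a thyroid and kidney factor, held 1 of these at the start of PAX8-AS1, with 97.2% in Control, 92.4% with etoposide, 88.5% with propyl gallate, 76.2% with theophylline and 95.7% with 5-aza-dc. The fewest calls in that window were 56, and no comparison was called.

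The clustered protocadherins, neuronal adhesion proteins each expressed from its own promoter, were at the other end. Of 45 windows in 34 genes, 32 were at 90% or above, and the Control mean was 81.1%. PCDHGC5 was lowest, with 1.26% in Control and between 2.99% and 6.06% in the other libraries. Zinc finger (ZNF) genes were spread out, with 153 of 386 windows under 10% and 139 at 90% or above. ZNF423, whose window lies 365418 bases into the gene, was at 48.0% in Control, 40.0% with etoposide, 40.0% with propyl gallate, 38.6% with theophylline and 33.5% with 5-aza-dc. All 4 chemical libraries were below the single Control, the 5-aza-dc library by the most (difference -14.4 percentage points, adjusted p = 9.11e-33, Fisher's exact test).

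Imprinted genes and their hosts had 28 windows in 19 genes, of which 10 were under 10%, 8 between 30% and 70% and 6 at 90% or above. This list includes DNMT1, whose windows at 1.77% and 95.9% in Control are counted here as well as among the enzymes above. Among all gene-body islands 1164 of 18587 windows were between 30% and 70%. The 8 intermediate windows belonged to KCNQ1, NDN, SNURF, ZNF331 (2 windows), GNAS, GRB10 and MESTIT1, and over the 5 libraries they stayed between 33.0% and 63.2%. KCNQ1, a potassium channel gene, was at 34.2% in Control, 40.1% with etoposide, 36.3% with propyl gallate, 33.0% with theophylline and 33.3% with 5-aza-dc. Its window lies 816 bases from the start of KCNQ1 itself. GNAS, which encodes a G protein subunit, was at 53.8%, 61.8%, 50.9%, 48.0% and 51.5% in the same order. The etoposide library was the highest at both genes, but not at all intermediate windows. Control was the highest at NDN with 57.6%, and theophylline at SNURF with 42.6%. Propyl gallate was the highest at the ZNF331 window chr19:53537001-53538000, with 60.3%.

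In the window of ZNF331 whose promoter sequence is shown above, the level was 52.4% in Control, 61.1% with etoposide, 56.5% with propyl gallate, 52.0% with theophylline and 54.8% with 5-aza-dc. GRB10, an adaptor of insulin signalling, was at 58.3%, 63.2%, 60.8%, 46.9% and 52.3%. MESTIT1, an antisense RNA of the imprinted gene MEST, was at 43.2%, 46.4%, 39.5%, 50% and 34.2%. These ranges of up to 16.4 percentage points gave no call, although the difference of 8.72 points between etoposide and Control at ZNF331 had an adjusted p of 1.94e-14 (Fisher's exact test on at least 4584 calls). Beside 88 called windows among all 18587, the lists had 1, in the protocadherins, with PCDHGA10 at 86.1% in Control and 60.2% after propyl gallate. The lists hold only 28 to 386 windows each, so this count says little about them.

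The comparison with Control asked whether each chemical moved the methylation of these islands. For etoposide the mean difference was 0.169 percentage points (0.142 to 0.196 as the 95% interval of counting). It was 0.145 after propyl gallate (0.118 to 0.171) and 0.420 after theophylline (0.393 to 0.446). It was -1.06 after 5-aza-dc (-1.09 to -1.03). The 5-aza-dc library was lower in 11590 windows and higher in 6848, whereas the theophylline library was higher in 10506 and lower in 7934. The etoposide library was higher in 9460 and lower in 8965, and the propyl gallate library higher in 9307 and lower in 9116. The median differences were 0.0241 for etoposide and 0.00482 for propyl gallate, far below their means, and 0.187 for theophylline and -0.409 for 5-aza-dc. No replicate shows how far 2 libraries of the same condition would differ.

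The difference after 5-aza-dc was largest where methylation was intermediate. In the 1164 windows with a mean of 30% to 70% over the 5 libraries, the mean level was 50% in Control and 46.0% after 5-aza-dc, a difference of -4.03 percentage points (-4.22 to -3.84). It was -2.71 in windows of 10% to 30%, -1.87 between 70% and 90%, and -0.828 from 90% upwards. In the 8560 windows under 10% it was -0.375, from 2.36% in Control to 1.98% after 5-aza-dc. As a share of the Control level, this was more than in the intermediate windows. In the intermediate windows the other 3 libraries differed from Control by -0.0634 to 0.639 points. All 4 pairs of libraries that include 5-aza-dc differed by 3.97 to 4.67 points there, and the 6 other pairs by at most 0.702, so the difference was not one of the Control library alone. Promoter islands of the same class had a difference of -3.48 (-3.67 to -3.28) and intergenic islands one of -3.70 (-3.96 to -3.45). Windows of at least 70% were higher in the other 3 chemical libraries than in Control. The differences were 0.332 to 1.06 points at 70% to 90% and 0.465 to 0.680 at 90% or above. At 70% to 90% these 3 libraries also differed from each other, by 0.215 to 0.728 points. In windows under 10% the differences from Control were -0.0795 after etoposide, -0.0907 after propyl gallate and 0.0634 after theophylline.

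**Figure D4:**
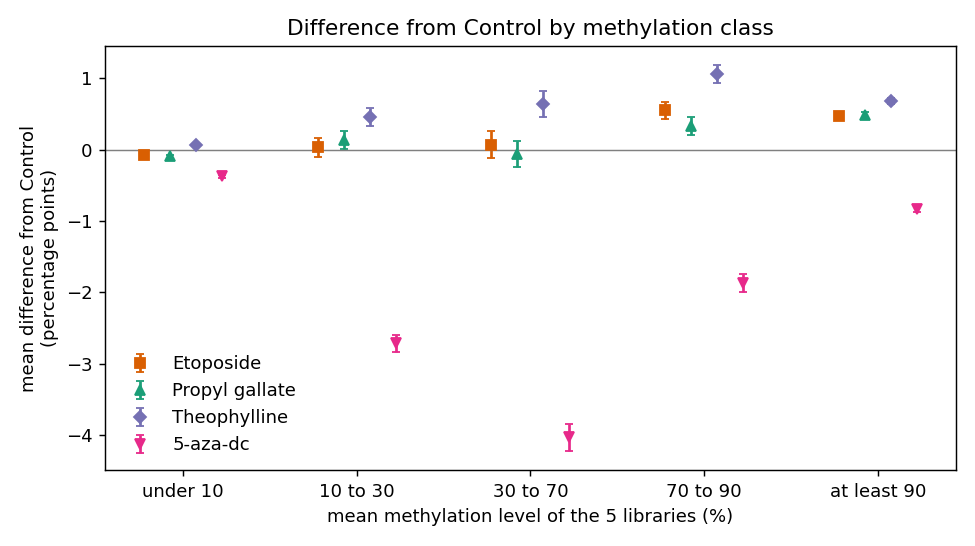
Mean difference in methylation level from Control (y axis, percentage points) for windows in 5 classes of mean level (x axis, %), with 1 symbol per chemical. Bars are 95% counting intervals, and the 5-aza-dc symbol reaches -4.03 in the class of 30% to 70%.

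The difference after 5-aza-dc appeared in every section, with -1.56 percentage points (-1.70 to -1.42) in 3′ UTRs, -1.09 in exons, -1.04 at intron-exon boundaries and -0.994 in introns. It was -0.797 within 1 kb of the gene start, -1.25 to -1.12 in the groups from 1 to 50 kb, -0.906 at 50 to 100 kb and -1.42 beyond 100 kb. It thus did not grow steadily with distance. In windows near a gene start it was -0.904 and in the others -1.16. Among the lists, the median difference after 5-aza-dc was -0.525 in imprinted genes, -0.842 in protocadherins, -0.289 in homeobox genes, -0.506 in ZNF genes, -0.218 in DNA methylation enzymes and -0.593 in pluripotency genes, beside -0.409 over all gene-body islands.

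The range between the 5 libraries is bounded near 0% and 100%, and the classes are set on the mean of the same libraries, so these ranges are a description. Among windows with at least 100 calls in all libraries, the median range from the lowest to the highest library was 1.18 percentage points in windows under 10%, 10.4 between 30% and 70%, and 4.28 from 90% upwards. A range of 25 points or more was seen in 45 of 1075 intermediate windows, and in 3 of 8149 windows under 10% and 1 of 5089 windows of at least 90%.

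Single windows were called different from Control when the adjusted p was under 0.01 by Fisher's exact test, two-sided and adjusted by the Benjamini-Hochberg method over all 288391 windows, and the difference was at least 25 percentage points. This test compares 2 libraries and not 2 conditions. After etoposide, 13 gene-body island windows were called higher (0.0699% of them, beside 0.0995% of all windows) and 11 lower (0.0592%, beside 0.0922%). After propyl gallate 20 were higher (0.108%, beside 0.0933%) and 18 lower (0.0968%, beside 0.0832%). After theophylline 13 were higher (0.0699%, beside 0.104%) and 11 lower (0.0592%, beside 0.0697%). After 5-aza-dc 10 were higher (0.0538%, beside 0.0742%) and 28 lower (0.151%, beside 0.236%). The shares of the gene-body islands were thus near or below those of all windows, and slightly above them only after propyl gallate. A window under 10% cannot fall by 25 points, and one at 90% or above cannot rise by that much. In Control 45.8% of the gene-body islands were under 10%, against 9.56% of all windows, and 28.5% were at 90% or above, against 56.1%. The median window had 1340 calls in Control, against 499 over all windows. The shares are therefore not directly comparable, and the difference at matched levels and calls was not tested. In all 88 windows were called after at least 1 chemical, 62 of them after exactly 1. Of the 28 windows lower after 5-aza-dc, 17 had intermediate levels. So did 8 of the 11 lower after etoposide, 12 of the 18 after propyl gallate and 7 of the 11 after theophylline. The class is set on the mean of the same 5 libraries, so a large difference itself moves a window towards the middle.

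The windows named next had the largest called differences among those with at least 50 calls in every library. They were chosen for that size, so their values are a description, and they are ordered here by what the genes do only for reading. Of their 32 comparisons with Control, 16 were no longer called when all calls were divided by 4, among them those of TRRAP, ZXDA, PALM, RPS4X, MDGA2, KIF1A and CSE1L. REC8 (chr14:24172001-24173000), a cohesin subunit of meiosis, was at 85.1% in Control, 35.4% with etoposide, 40.4% with propyl gallate, 53.8% with theophylline and 67.6% with 5-aza-dc. Control was the highest of the 5, with 450 calls against 822 to 1289 in the others. The differences of etoposide and propyl gallate from Control were -49.7 and -44.7 percentage points (adjusted p = 3.14e-68 and 8.81e-60, Fisher's exact test). The sequence before its start is shown above.

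PRDM7 (chr16:90082001-90083000), a close paralogue of the meiotic recombination factor PRDM9, was at 1.60% in Control, 38.8% with etoposide, 26.3% with propyl gallate, 41.1% with theophylline and 85.6% with 5-aza-dc. Its 5-aza-dc value gave the largest difference of all named windows, 83.7 points on 109 calls against 125. How reads were divided between the paralogues was not tested. SMARCB1 (chr22:23838001-23839000, 3′ UTR), a core subunit of the SWI/SNF remodeller, was at 16.4% in Control, 14.8% with etoposide, 54.8% with propyl gallate, 15.3% with theophylline and 35.4% with 5-aza-dc. Control, etoposide and theophylline lay together there, and the other libraries above them. DPF1 (chr19:38224001-38225000), a subunit of the neuronal form of the same complex, was at 95.2%, 97.9%, 65.0%, 100% and 49.2% in the order used above, so propyl gallate and 5-aza-dc were low. TRRAP (chr7:98879001-98880000), a scaffold of histone acetyltransferase complexes, was at 81.7% in Control and 78.1% after propyl gallate, but at 43.2%, 43.8% and 46.8% after etoposide, theophylline and 5-aza-dc.

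CCND1 (chr11:69643001-69644000), cyclin D1 of the G1 phase, was at 73.1% in Control, 26.0% with etoposide, 65.0% with propyl gallate, 57.2% with theophylline and 41.1% with 5-aza-dc. The etoposide difference was -46.9 points (adjusted p = 6.18e-34, Fisher's exact test), and the 5-aza-dc library was the next lowest. CSE1L (chr20:49047001-49048000), the export receptor of importin alpha, was at 24.0%, 44.6%, 31.6%, 48.3% and 53.4%. KIF1A (chr2:240818001-240819000), an axonal kinesin, was at 57.8%, 48.6%, 66.1%, 73.9% and 87.5%. In both the 5-aza-dc library was the highest of the 5. RPS4X (chrX:72255001-72256000), a ribosomal protein, was at 54.8%, 70.8%, 23.1%, 86.4% and 43.4%, with as few as 57 calls.

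GRAMD4 (chr22:46577001-46578000), a GRAM domain protein, was at 12.3% in Control, 12.3% with etoposide, 80.8% with propyl gallate, 10.1% with theophylline and 8.43% with 5-aza-dc. Only the propyl gallate library was high (difference 68.6 points, adjusted p = 1.21e-44, Fisher's exact test), and it had 110 calls against 649 to 863 in the others. MMP17 (chr12:131831001-131832000), a membrane-type matrix metalloproteinase, was at 82.0%, 56.3%, 42.3%, 77.1% and 36.4%. MDGA2 (chr14:47673001-47674000), a neuronal adhesion protein, was at 53.9%, 75%, 56.2%, 83.7% and 72.9%. The first was highest in Control and the second lowest there. PALM (chr19:737001-738000) was at 51.5%, 32.1%, 5.45%, 48.9% and 44.8%, with the low value after propyl gallate resting on 51 calls. PLAAT5 (chr11:63490001-63491000), a phospholipid acyltransferase, was at 85.6%, 81.8%, 48.6%, 43.0% and 31.4%, and NPEPL1 (chr20:58693001-58694000), an aminopeptidase, at 13.9%, 57.6%, 41.2%, 43.2% and 33.0%.

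In the gene ENSG00000253720 (chr8:129940001-129941000), Control was at 43.0% and propyl gallate at 1.08%, while none of 120, 179 and 214 calls was methylated after etoposide, theophylline and 5-aza-dc, which allows levels of up to 2.50%, 1.68% and 1.40% at the limit of 3 calls. It was the only gene-body island window called after all 4 chemicals, which share the Control library. LINC00092 (chr9:96020001-96021000), a long non-coding RNA, was at 3.09% in Control, 31.8% after propyl gallate and 19.3% after 5-aza-dc, with none of 163 and 183 calls methylated after etoposide and theophylline (up to 1.84% and 1.64% at the same limit). ENSG00000203472 was at 89.0% in Control and 51.7% after both propyl gallate and theophylline. ENSG00000280137 was at 91.0% in Control and 49.7% after propyl gallate, and ENSG00000286138 at 55.9% in Control and 96.7% after 5-aza-dc. ZXDA, a zinc finger gene, was at 32.2% in Control, 50.6% with etoposide, 67.5% with propyl gallate, 84.2% with theophylline and 20.6% with 5-aza-dc. NAP1L6P was at 16.6%, 58.1%, 38.4%, 38.2% and 37.1% in the same order. Control was the lowest there and the other 3 chemicals besides etoposide lay together, whereas at ZXDA 5-aza-dc was the lowest. FAM157A was at 36.4%, 75.9%, 44.4%, 41.8% and 55.9%. These 3 genes belong to families with similar copies, and how reads were divided between copies was not tested.

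The windows beside the named ones were examined for the same differences. The 23 windows gave 32 comparisons with Control, and 27 of these had a neighbouring window in the table. Of the 37 neighbouring values, 14 were so near 0% or 100% in Control that they could not move by 10 percentage points in the direction of the named window. Of the 23 that could, in 17 comparisons, 21 were within 10 points of Control and none moved that far in the same direction. The remaining 2, at NPEPL1 after etoposide and at PALM after propyl gallate, went the opposite way. The window after that of REC8 was at 95.6% in Control and 94.8% after etoposide, and the one before that of SMARCB1 at 84.3% in Control and 83.1% after propyl gallate. Some named windows lay between neighbours of very different levels. In Control the window before that of REC8 was at 4.79%, and those beside ENSG00000280137 were at 0.667% and 98.4%. Those beside NPEPL1 were closer, at 67.9% and 94.7%. A window value averages over the CpG sites covered, and whether the libraries covered the same sites was not tested.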

How the data were processed

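RRBS libraries of HPS0063 iPSCs under 5 conditions, 1 library each, were analysed. Per the submitters' processing notes the authors used FastQC 0.11.7, Trim Galore 0.5.0, Bismark 0.20.0, SAMtools 1.9 and methylKit 1.10.0 on hg38, with calls summed in windows of 1000 bases, coverage scaled between libraries and windows covered in all libraries kept. The kit named for DNA extraction differs between labels and methods.

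The deposited calls of Control are counts. In the other 4 libraries the authors had scaled the calls by 1 factor per library and rounded them, so the deposited values are a score. The β-value was deposited as a fraction, methylated calls over coverage, and is printed here in percent. Calls before scaling were recovered with the factors 1.211 for 5-aza-dc, 1.155 for theophylline, 1.087 for propyl gallate and 1.179 for etoposide, and scaling them again gave the deposited coverage back for at least 99.99% of windows. Fisher's exact test, planned on counts, was run on the recovered calls of all windows with Benjamini-Hochberg adjustment, after checking on simulated data. The simulated calls were drawn independently, so the check does not cover calls that share a read or a PCR copy. Intervals of single windows are Wilson intervals, and those of mean differences come from the binomial variance of each window. Classes of methylation use the mean of the 5 libraries. RefSeq gene starts and sequences are from GRCh38.p14.

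Windows were named by size of change (for each chemical up to 4 higher and 4 lower than Control, adjusted p under 0.01, at least 50 calls in all libraries), genes by number of windows (the first 10), and list members by the lowest, middle and highest Control level, by intermediate level (imprinted genes, at least 100 calls) or by a call. Other windows of DNMT3A, UHRF1, SALL4, TERT, DNMT1 and BCOR were described after their values were seen. Members and lists were chosen with earlier results of these data known. Windows on chromosome Y were not named. Alternatives covered depth, pooling, medians, autosomes, another reference, merged windows, gene starts, thresholds and scaled or divided calls. Python 3.11.15, numpy 2.4.6, pandas 2.3.3, numba 0.67.0 and matplotlib 3.10.9 were used.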

Additional observations from a re-analysis of the deposited data

How the results depend on the processing

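The direction of each mean difference from Control was the same under all alternatives tried, and the sizes moved as follows. With calls pooled, the difference was 0.321 percentage points after etoposide, 1.23 after theophylline and -1.92 after 5-aza-dc. As a median over windows it was 0.0241, 0.00482, 0.187 and -0.409 for etoposide, propyl gallate, theophylline and 5-aza-dc. With the mean of the other 4 libraries as the reference it was 0.293, 0.263, 0.607 and -1.24, and without windows near a gene start 0.273, 0.243, 0.566 and -1.16, in the same order. With adjacent windows merged it was -1.01 after 5-aza-dc. Requiring only 10 points gave 300, 307, 276 and 533 called windows in place of 24, 38, 24 and 38, while dividing all calls by 4, for calls that are not independent, left 7, 11, 4 and 12. Without windows near a gene start 20 remained of those after propyl gallate and 14 of those after theophylline. The share of windows under 10% was 47.0% in the 5-aza-dc library and 46.9% with at least 100 calls, against 45.8%. The share of at least 90% was 29.8%, 29.6%, 30.4% and 25.3% in these libraries and 25.9% with windows merged, against 28.5%. The Control mean of gene-body islands lay 23.4 points above promoter islands. This was 23.1 with at least 100 calls, 23.6 on autosomes, 17.7 between medians and 40.2 without windows near a gene start. Intergenic islands lay 23.5 points above gene-body islands, or 23.4 on autosomes, 70 between medians and 12.9 without windows near a gene start. Windows with no gene start nearby lay 42.2 points above the rest, or 41.9 with at least 100 calls and 37.9 when only starts inside the window counted. All 32 named differences passed the same threshold on the deposited calls, and 16 of the 32 did on calls divided by 4. Those lost, with the same direction, were at CSE1L, KIF1A, ENSG00000280137, FAM157A, LINC00092, MDGA2, NAP1L6P, PALM, RPS4X, PLAAT5 (theophylline), PRDM7 (etoposide and theophylline), TRRAP (both) and ZXDA (both). With 1 library per condition nothing could be left out as a replicate, and no difference between conditions could be tested. Calls per window limit single values, most of all in windows with under 100 calls. The cause of each shift was not tested.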
